A study of Homo sapiens with 4 samples.

Results

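Translesion synthesis and fork restart genes let a replication fork get past damaged template or short supply of nucleotides. The 10 genes described here were taken by symbol from a table of 27275 genes: POLH, POLI, POLK, REV1, REV3L, MAD2L2, RAD18, HLTF, SHPRH and PRIMPOL. All 10 had a row and all 10 passed the filter on low counts, which left 15840 genes. RNA was sequenced from C4-2 cells, a castration-resistant prostate cancer line derived from LNCaP cells. The cells were transfected with a pool of siRNAs against RRM2 (RRM2 siRNA, 2 libraries) or with a scrambled siRNA (2 libraries), and the comparison asks what changes when RRM2 is reduced. RRM2 is the small subunit of ribonucleotide reductase, the enzyme that makes deoxyribonucleotides. The groups have the same cell line and differ in the siRNA alone as far as the labels say, with 1 pool against RRM2 and no DNA-damaging agent named.

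When the replicative polymerases stall at a lesion, RAD18 and its partner conjugating enzyme attach a single ubiquitin to the sliding clamp PCNA. The modified clamp then recruits polymerases of the Y family (POLH, POLI, POLK and REV1), which insert a base opposite the lesion, and polymerase zeta (REV3L with MAD2L2), which extends from it. HLTF and SHPRH, the human relatives of yeast Rad5, can lengthen the ubiquitin on PCNA to a chain and so favour error-free bypass. PRIMPOL starts synthesis again beyond the block.

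The RRM2 siRNA libraries held 29941671 and 28941206 counts, and the scrambled siRNA libraries 28508906 and 27844121. RRM2 itself had 118 and 125 normalized counts with RRM2 siRNA, against 1333 and 1239 with scrambled siRNA, so that RRM2 fell by 3.41 on the log2 scale, with a standard error (SE) of 0.08. A normalized count is the deposited count scaled to the libraries' common size by TMM. The sources do not say whether the 2 libraries of a group were separate cultures, so the p-values rest on library-to-library spread that could be purely technical. RRM2 siRNA replicate 2 stood apart in structural RNA, at 8.28% of counts, against 4.52% in replicate 1 and 3.93% and 4.08% with scrambled siRNA. Over all genes the 2 RRM2 siRNA libraries differed with a chi-square of 35.2 per degree of freedom and the 2 scrambled siRNA libraries with 3.66. With structural RNA genes left out, these values were 1.98 for RRM2 siRNA and 2.95 for scrambled siRNA, so the order turned, and both stayed above the sampling of reads alone. The fits reported here kept the structural RNA genes. All 12 prostate luminal markers had counts in every library, with KLK3 (PSA) at 156463 to 172699, and 2 of them were higher and 5 lower with RRM2 siRNA. Of 13 markers of other cell types, PTPRC, CD3E, DCN, TP63, KRT5 and CHGA had at most 4 counts. COL3A1 had 11 to 16 counts and PECAM1 6 to 19. The rest had more, with CD68 at 1394 to 1959 counts and COL1A1 at 908 to 1199. LYZ had 184 to 329, SYP 147 to 345 and VWF 189 to 233. Of the 7 that could be tested, 5 were higher and 0 lower. The list summed to 133 and 127 CPM with RRM2 siRNA, against 105 and 107 CPM with scrambled siRNA. Across all genes tested 25.4% were higher and 25.0% lower at the same threshold, an adjusted p under 0.05. The part of these other-type transcripts in the results below was not tested.

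With RRM2 siRNA, POLH and POLK were higher, HLTF and SHPRH were lower, and the other 6 members did not pass an adjusted p under 0.05 (edgeR quasi-likelihood test, adjusted over all 15840 genes). Across all genes tested 25.4% were higher and 25.0% lower at that threshold, so 2 of 10 in each direction is a share near the background. At a fold change over 1.5 as well, the threshold the study used, POLH alone was called, where 5.90% of all genes were higher and 5.25% lower. The median log2 fold change of the 10 was 0.03, against -0.0018 over all genes tested. Normalized counts did not overlap between the groups for 2 members with RRM2 siRNA higher and 2 with it lower, where 37.7% and 37.3% of all genes tested had such groups. Summed over the 10 genes, normalized counts were 16278 and 16117 with RRM2 siRNA, against 15643 and 15507 with scrambled siRNA. Without POLH the other 9 summed to 13656 and 13513 with RRM2 siRNA, against 14256 and 14149 with scrambled siRNA, so the higher total rested on POLH. Of these 9 HLTF was largest, at 7317 and 7298 with RRM2 siRNA, against 7996 and 8160 with scrambled siRNA. The lower sum of the 9 rested on HLTF and does not describe the rest of the set. In bulk RNA, a change in RNA per cell and a change in the share of cells at a stage that makes the RNA cannot be told apart.

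**Figure D1:**
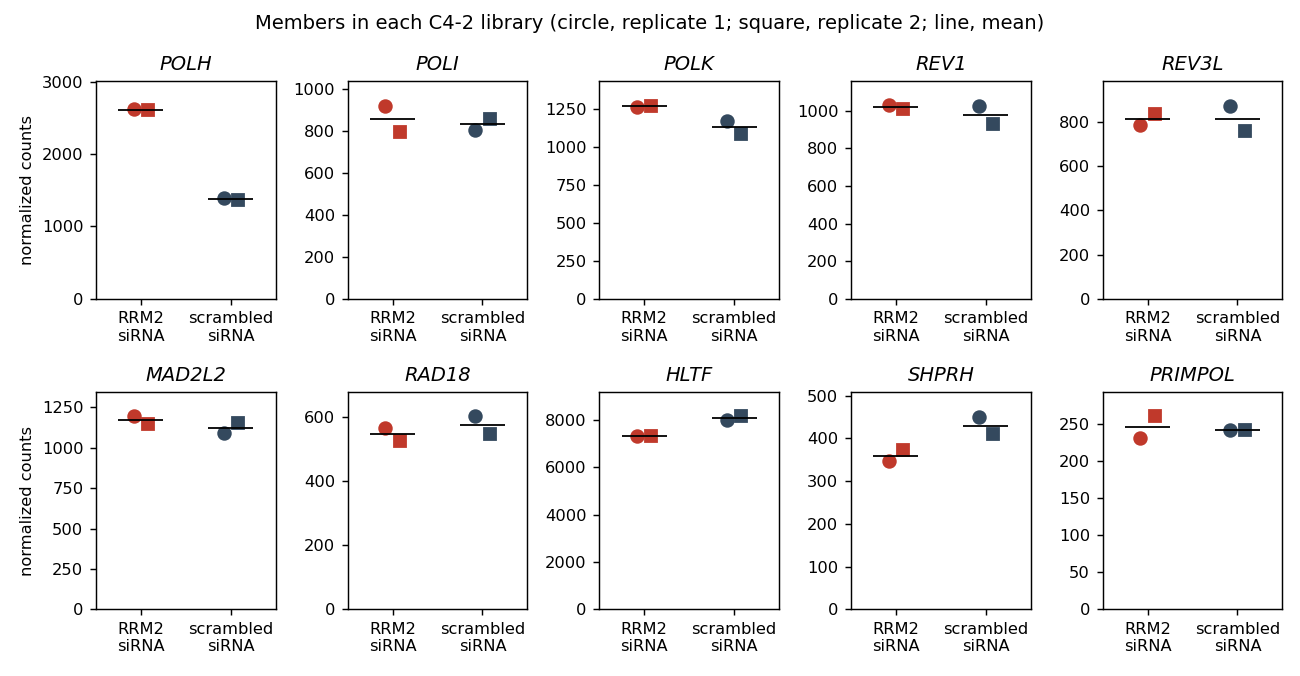
Normalized counts of the 10 genes in each library, 1 panel per gene with its own axis from 0 (left, RRM2 siRNA; right, scrambled siRNA; circle, replicate 1; square, replicate 2; line, mean). POLH sits at 2622 and 2604 with RRM2 siRNA and at 1386 and 1358 with scrambled siRNA, and POLI, REV1, REV3L, MAD2L2, RAD18 and PRIMPOL overlap between the groups.

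POLH encodes polymerase eta, which copies past ultraviolet cyclobutane dimers without error, is lost in the variant form of xeroderma pigmentosum and is a known p53 target. It had 2622 and 2604 normalized counts with RRM2 siRNA, against 1386 and 1358 with scrambled siRNA. Both RRM2 siRNA libraries lay far above both scrambled siRNA libraries. The libraries within a group differed little, with a coefficient of variation of 0.472% with RRM2 siRNA and 1.49% with scrambled siRNA. Counting error alone is 1.89% and 1.97% for the RRM2 siRNA libraries and 2.70% and 2.77% for the scrambled siRNA libraries. These 2 spreads thus lie below the sampling of reads and do not measure reproducibility. The means were 2613 ± 12.3 and 1372 ± 20.4 (SD, n = 2 each), a 1.90-fold rise with a log2 fold change of 0.93 (SE 0.05, 95% interval 0.83 to 1.03, adjusted p = 8.74e-10 from edgeR). Of all genes tested, 486 rose more. The gene lies on chromosome 6 of the deposited table, from 43576141 to 43620523 on the plus strand. Its last 43 bases overlap the end of GTPBP2 on the other strand, with which it could share reads. GTPBP2 had 6400 and 6168 normalized counts with RRM2 siRNA, against 5029 and 5086 with scrambled siRNA, a smaller log2 fold change of 0.31 (SE 0.04).

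The start of POLH is shown because it is the member with the largest change. The sequence is RefSeq's, from GRCh38.p14 at chr6:43575935-43576234 (plus strand), 250 bases before the start site to 50 after it, in lower case with the motifs that were found in capitals.
POLH promoter: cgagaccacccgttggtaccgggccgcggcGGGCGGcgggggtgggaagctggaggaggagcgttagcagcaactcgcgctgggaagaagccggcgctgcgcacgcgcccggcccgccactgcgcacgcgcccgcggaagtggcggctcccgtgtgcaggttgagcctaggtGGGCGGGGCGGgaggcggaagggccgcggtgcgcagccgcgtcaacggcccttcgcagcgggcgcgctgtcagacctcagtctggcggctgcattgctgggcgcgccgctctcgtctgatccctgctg
The capitals mark 3 matches to GGGCGG, the GC box bound by Sp1 factors, 2 of which overlap by a base. In the first window RefSeq lists for each gene, which is the one counted here, GC boxes on either strand occurred in 9 of the 10 members, all but POLI, and in 45.0% of 35116 RefSeq windows of this length. The members' windows held 57.7% to 80.7% G and C, against a median of 58.7% over all windows. The p53 decamer was found in 0 of these 10 windows, POLH's included, and in 6.63% of all windows, and a pair of such decamers in 0 of the 10 and in 0.0285% of all. These counts describe letters in a short window and leave the rest of each gene unsearched.

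POLI and POLK encode the other polymerases of this family that insert bases, iota, which is error-prone, and kappa, which gets past bulky adducts of the minor groove. POLK had 1263 and 1270 normalized counts with RRM2 siRNA, against 1168 and 1087 with scrambled siRNA. The RRM2 siRNA libraries were both above the scrambled siRNA libraries, which lay further apart from each other than the RRM2 siRNA libraries did. The gene runs from 75511750 to 75605819 on the plus strand of chromosome 5. The log2 fold change was 0.17 (SE 0.05, 95% interval 0.06 to 0.28, edgeR, adjusted p = 0.0122), a rise of 12.3%. DESeq2 did not call POLK (adjusted p = 0.104), nor did the fit lacking RRM2 siRNA replicate 2 (log2 fold change 0.16, adjusted p = 0.0615) or the fit lacking scrambled siRNA replicate 2 (log2 fold change 0.11, adjusted p = 0.0925), over a range of adjusted p from 0.00306 to 0.104 in 12 alternatives. POLI had 920 and 792 normalized counts with RRM2 siRNA, against 805 and 858 with scrambled siRNA. The scrambled siRNA libraries lay between the RRM2 siRNA libraries, and the log2 fold change was 0.04 (95% interval -0.10 to 0.19, edgeR, adjusted p = 0.616).

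The start of POLK is shown because 232 bases of the gene are shared with COL4A3BP, a ceramide transfer protein read from the opposite strand, so the pair diverge from one region. The RefSeq window is GRCh38.p14 chr5:75511641-75511940 (plus strand).
POLK promoter: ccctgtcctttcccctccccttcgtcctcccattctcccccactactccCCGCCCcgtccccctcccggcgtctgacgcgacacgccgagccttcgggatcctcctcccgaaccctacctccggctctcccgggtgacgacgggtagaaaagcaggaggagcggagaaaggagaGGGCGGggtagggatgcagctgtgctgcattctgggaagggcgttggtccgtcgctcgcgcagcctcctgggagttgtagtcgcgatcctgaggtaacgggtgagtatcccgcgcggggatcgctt
Here the capitals are GC boxes, read as GGGCGG on the gene's strand or CCGCCC on the other. COL4A3BP had 1445 and 1434 normalized counts with RRM2 siRNA, against 1179 and 1173 with scrambled siRNA. Its log2 fold change was 0.29 (SE 0.05, edgeR, adjusted p = 1.02e-04), above that of POLK. Whether the counting used strand is not stated, and how far reads of the shared bases entered the POLK value was not tested.

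REV1, a deoxycytidyl transferase and the scaffold on which the other polymerases gather, had 1029 and 1010 normalized counts with RRM2 siRNA, against 1027 and 932 with scrambled siRNA. Its groups overlapped, and the log2 fold change was 0.06 (95% interval -0.06 to 0.18, edgeR, adjusted p = 0.415). REV3L, the catalytic subunit of polymerase zeta, had 788 and 836 with RRM2 siRNA, against 874 and 757 with scrambled siRNA, so that the scrambled siRNA libraries were both the highest and the lowest. The log2 fold change of REV3L was -0.0077 (95% interval -0.15 to 0.13, edgeR, adjusted p = 0.935). MAD2L2 (REV7), the accessory subunit that bridges REV3L and REV1 and also serves in the shieldin complex at broken ends, had 1196 and 1148 with RRM2 siRNA, against 1093 and 1155 with scrambled siRNA. The 2 groups of MAD2L2 overlapped, with a log2 fold change of 0.06 (95% interval -0.05 to 0.17, edgeR, adjusted p = 0.333). REV3L shares 244 bases with TRAF3IP2-AS1 on the other strand, which had 34.8 and 38.6 normalized counts with RRM2 siRNA, against 35.3 and 21.9 with scrambled siRNA. The intervals of REV1, REV3L and MAD2L2 end well short of a 1.5-fold change in either direction.

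PRIMPOL had the fewest counts of the 10, with 246 and 257 deposited counts with RRM2 siRNA, against 240 and 233 with scrambled siRNA, where counting error alone is 6.24% to 6.55%. Its normalized counts were 232 and 261 with RRM2 siRNA, against 242 and 243 with scrambled siRNA. The scrambled siRNA values lay between those of RRM2 siRNA. The log2 fold change of PRIMPOL was 0.02 with the widest interval of the set, from -0.20 to 0.25 (edgeR, adjusted p = 0.881). A difference within that interval was not detectable at this depth. PRIMPOL shares 895 bases with CENPU, a centromere gene on the other strand with 1283 and 1146 normalized counts with RRM2 siRNA, against 1146 and 1141 with scrambled siRNA.

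**Figure D2:**
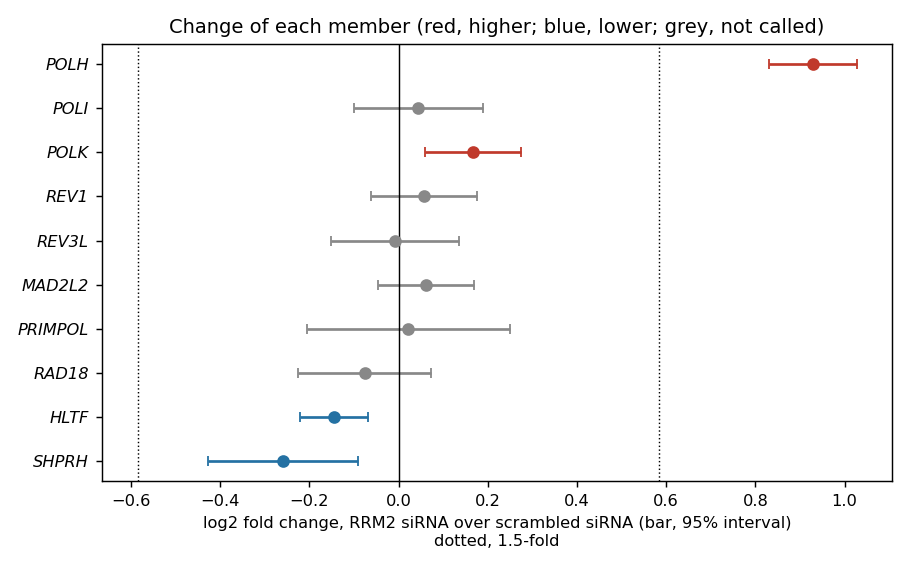
Log2 fold change of each gene, RRM2 siRNA over scrambled siRNA (point, estimate; bar, 95% interval; dotted lines, 1.5-fold either way; red, higher; blue, lower; grey, not called at an adjusted p under 0.05). POLH at 0.93 is the single gene beyond the dotted lines, and the other 9 lie between -0.26 and 0.17.

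Among the ubiquitin ligases of PCNA, RAD18, which starts the pathway, had 566 and 526 normalized counts with RRM2 siRNA, against 603 and 549 with scrambled siRNA. Its groups overlapped, and the log2 fold change was -0.08 (95% interval -0.22 to 0.07, edgeR, adjusted p = 0.388). HLTF, which both builds the ubiquitin chain and turns back stalled forks, had 7317 and 7298 with RRM2 siRNA, against 7996 and 8160 with scrambled siRNA. The groups of HLTF did not overlap. Its coefficient of variation was 1.43% with scrambled siRNA and 0.178% with RRM2 siRNA, the latter below the counting error of 1.13% and 1.18%. HLTF fell by 0.14 on the log2 scale (SE 0.04, 95% interval -0.22 to -0.07, edgeR, adjusted p = 0.00356), to 0.905 of the scrambled siRNA level, and passed in all 12 alternatives. SHPRH, the other Rad5 relative, had 346 and 373 normalized counts with RRM2 siRNA, against 449 and 410 with scrambled siRNA. Its groups did not overlap, although the inner libraries lay close. SHPRH fell by 0.26 (SE 0.08, 95% interval -0.43 to -0.09, edgeR, adjusted p = 0.0126), to 0.835 of the scrambled siRNA level. SHPRH was not called by DESeq2 (adjusted p = 0.135), in the fit lacking RRM2 siRNA replicate 1 (log2 fold change -0.21, adjusted p = 0.121) or in that lacking scrambled siRNA replicate 1 (-0.20, adjusted p = 0.0769), over a range of 0.00282 to 0.135. HLTF lies on chromosome 3 from 149030064 to 149086554 and SHPRH on chromosome 6 from 145884809 to 145964097, both on the minus strand. SHPRH shares 1777 bases with LOC100507557 on the other strand, which had 43.3 and 29.5 normalized counts with RRM2 siRNA, against 15.1 and 19.8 with scrambled siRNA.

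The starts of both genes that fell are shown to set them beside POLH and POLK. HLTF's window is GRCh38.p14 chr3:149086484-149086783 (minus strand), and that of SHPRH is chr6:145964309-145964608 (minus strand), both given along the gene. The SHPRH window lies wholly upstream of the gene as the deposited table places it, which begins at 145964097 on this strand.
HLTF promoter: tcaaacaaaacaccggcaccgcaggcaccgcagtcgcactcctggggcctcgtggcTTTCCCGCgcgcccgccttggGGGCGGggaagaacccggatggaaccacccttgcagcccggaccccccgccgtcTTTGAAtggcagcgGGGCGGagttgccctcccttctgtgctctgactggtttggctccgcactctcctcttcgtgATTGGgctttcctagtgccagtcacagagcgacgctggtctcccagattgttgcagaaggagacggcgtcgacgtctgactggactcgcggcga
SHPRH promoter: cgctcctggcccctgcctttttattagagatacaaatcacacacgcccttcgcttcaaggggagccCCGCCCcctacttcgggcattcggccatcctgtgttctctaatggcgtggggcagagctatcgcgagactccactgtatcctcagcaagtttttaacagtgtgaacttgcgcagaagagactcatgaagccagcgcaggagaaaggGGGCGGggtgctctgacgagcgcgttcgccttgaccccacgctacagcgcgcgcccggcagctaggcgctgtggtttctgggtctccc
HLTF has the E2F site TTTCCCGC, which 1.63% of all windows hold and which among the members' first windows was found in HLTF and POLI (REV3L holds it in another window). It also has the CHR element TTTGAA, found in 15.2% of all windows, an inverted CCAAT box (ATTGG), found in 34.6%, and 2 GC boxes. SHPRH has GC boxes alone. The set has too few genes to relate a motif to a change.

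Levels of different genes were compared as normalized counts per kilobase of the longest GENCODE transcript. HLTF was the highest at 1374 ± 2.45 with RRM2 siRNA and 1519 ± 21.8 with scrambled siRNA, and SHPRH was the lowest at 30.8 ± 1.60 with RRM2 siRNA and 36.9 ± 2.38 with scrambled siRNA (SD, n = 2 each). POLH was at 738 ± 3.49 with RRM2 siRNA and 388 ± 5.76 with scrambled siRNA. MAD2L2, at 630 ± 18.5 with RRM2 siRNA and 604 ± 23.3 with scrambled siRNA, thus stood below POLH with RRM2 siRNA and above it with scrambled siRNA. REV1 and POLK lay close with RRM2 siRNA, at 215 ± 2.87 and 214 ± 0.755 per kilobase, and their order turned between the libraries. With scrambled siRNA they were at 206 ± 14.1 and 191 ± 9.68, with REV1 above POLK in both libraries. POLI, PRIMPOL, RAD18 and REV3L followed at mean levels between 140 and 74.0 with RRM2 siRNA and between 136 and 74.4 with scrambled siRNA. Of the summed level of the 6 genes that encode polymerases (POLH, POLI, POLK, REV1, REV3L and PRIMPOL), POLH made up 49.6% ± 0.0359 with RRM2 siRNA and 35.2% ± 0.462 with scrambled siRNA (SD, n = 2 each). These levels depend on the length chosen. With the median transcript length the POLH share was 17.5% with RRM2 siRNA and 10.4% with scrambled siRNA, and HLTF and SHPRH kept the first and last place while POLH ranked below MAD2L2, REV1, POLI and RAD18 in both groups.

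**Figure D3:**
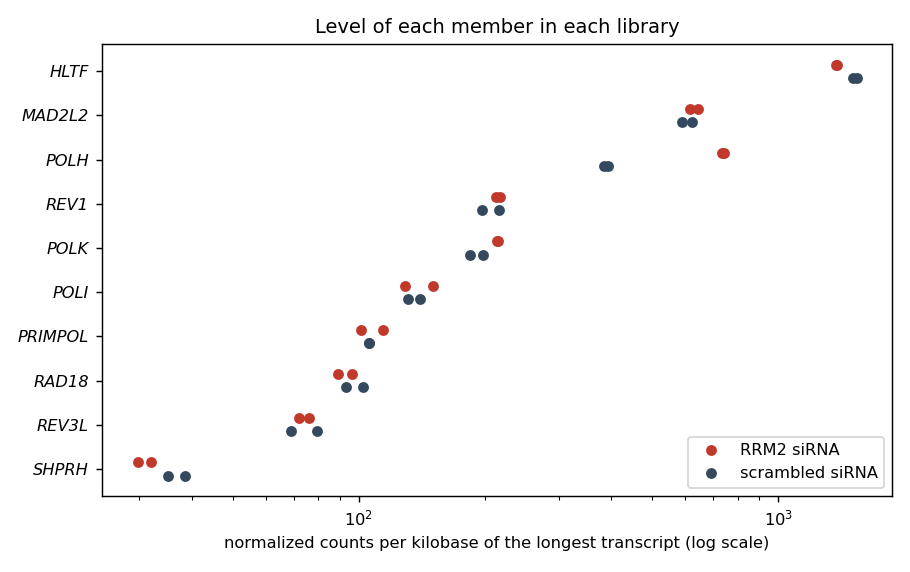
Normalized counts per kilobase of the longest transcript on a log axis, 1 row per gene, with both libraries of RRM2 siRNA (red, upper) and of scrambled siRNA (dark, lower). HLTF leads at 1374 with RRM2 siRNA and 1519 with scrambled siRNA, SHPRH is lowest at 30.8 and 36.9, and POLH is the row in which the groups lie furthest apart.

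The clamp and the enzymes that act on it moved in different directions. In a list of 20 genes for PCNA and its ubiquitin cycle, 11 passed as higher and 4 as lower while 5 did not pass, with a median log2 fold change of 0.14. Over all genes tested 25.4% were higher and 25.0% lower, with a median of -0.0018. PCNA fell by 0.58 (SE 0.05), with 2096 and 2034 normalized counts with RRM2 siRNA, against 3030 and 3125 with scrambled siRNA. UBE2A and UBE2B, the RAD6 conjugating enzymes that work with RAD18, had log2 fold changes of 0.22 (SE 0.05) and 0.22 (SE 0.06), and were named after their values were seen. UBE2B did not pass in DESeq2 (adjusted p = 0.0568) or in the fit lacking RRM2 siRNA replicate 1 (log2 fold change 0.11, adjusted p = 0.231). UBE2V2 (MMS2), which with UBE2N builds the chain that HLTF and SHPRH promote, rose by 0.41 (SE 0.05), while UBE2N, also named after its value was seen, did not pass at 0.0025 (SE 0.04). ATAD5, which unloads PCNA and brings in the deubiquitinase USP1, rose by 0.54 (SE 0.09), and RFC2, a subunit of the clamp loader, rose by 0.31 (SE 0.05). USP1 itself, named after its value was seen, had a log2 fold change of 0.10 (SE 0.05, edgeR, adjusted p = 0.0756).

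Of 15 further bypass polymerases and adaptors, 14 were tested, 4 passing as higher and 2 as lower while 8 did not pass, with a median of 0.04. Among all genes tested 25.4% passed as higher and 25.0% as lower. Polymerase zeta also holds POLD2 and POLD3, which it shares with the replicative polymerase delta. POLD2 fell by 0.61 (SE 0.04), with 3807 and 3637 normalized counts with RRM2 siRNA, against 5568 and 5762 with scrambled siRNA. POLD3 was at 809 and 857 with RRM2 siRNA, against 660 and 658 with scrambled siRNA, a log2 fold change of 0.34 (SE 0.06), and was named after its value was seen. The RNAs of the zeta complex thus split into POLD3 higher, POLD2 lower and REV3L and MAD2L2 not called. PCLAF (PAF15), which binds PCNA and affects access of bypass polymerases to it, had the largest rise of this list, at 1868 and 1942 normalized counts with RRM2 siRNA, against 786 and 778 with scrambled siRNA, a log2 fold change of 1.28 (SE 0.05). POLQ, the polymerase of theta-mediated end joining, rose by 0.41 (SE 0.05), and SPRTN, a protease that clears proteins crosslinked to DNA, by 0.37 (SE 0.06).

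Genes of fork protection and remodeling split evenly, with 8 of 19 higher, 8 lower and 3 not called, and a median of -0.02. Shares over all genes tested were 25.4% higher and 25.0% lower. HLTF shares the work of reversing forks with SMARCAL1 and ZRANB3, translocases of the same SNF2 family, which were named after their values were seen. FBXO18 of the same list, also named after its value was seen, did not pass, at 0.0011 (SE 0.04, edgeR, adjusted p = 0.987). SMARCAL1 had 864 and 867 normalized counts with RRM2 siRNA, against 1070 and 1028 with scrambled siRNA, and fell by 0.28 (SE 0.05, edgeR, adjusted p = 3.62e-04). ZRANB3 had 230 and 270 with RRM2 siRNA, against 350 and 280 with scrambled siRNA, and fell by 0.34 (SE 0.12, edgeR, adjusted p = 0.0266). ZRANB3 did not pass in DESeq2 (adjusted p = 0.118), in the fit lacking RRM2 siRNA replicate 1 (log2 fold change -0.22, adjusted p = 0.152) or in that lacking scrambled siRNA replicate 1 (-0.17, adjusted p = 0.348). On the other side, CLSPN (claspin, an adaptor of the ATR checkpoint) rose by 0.43 (SE 0.08) and DONSON (a fork protection factor) by 0.43 (SE 0.10). BLM, a RecQ helicase, had 198 and 198 normalized counts with RRM2 siRNA, against 153 and 145 with scrambled siRNA, a log2 fold change of 0.41 (SE 0.13, edgeR, adjusted p = 0.0156). BLM did not pass in DESeq2 (adjusted p = 0.0975) or in the fit lacking scrambled siRNA replicate 2 (log2 fold change 0.37, adjusted p = 0.0803).

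As POLH is a known p53 target, other p53 targets were counted beside it. Of 20 tested, 19 were higher and 1, GDF15, was lower, with a median log2 fold change of 0.86, and 8 of the 20 rose more than POLH. Of all genes tested 25.4% were higher and 25.0% lower. The list was chosen with earlier results of these data known and does not hold every p53 target. GDF15, a secreted stress factor named after its value was seen as the exception within this list, fell by 0.17 (SE 0.05). CDKN1A (p21), an inhibitor of cyclin-dependent kinases, rose by 2.31 (SE 0.04), with 27631 and 26805 normalized counts with RRM2 siRNA, against 5387 and 5622 with scrambled siRNA. DDB2, the damage sensor of nucleotide excision repair, rose by 2.02 (SE 0.05), TP53I3 by 1.67 (SE 0.08) and FDXR by 1.66 (SE 0.05). The other 9 members had log2 fold changes between -0.26 and 0.17. All 20 p53 targets ran from -0.17 to 2.31, so the ranges overlapped. The part of p53 in the POLH value was not tested.

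Genes of the cell cycle moved alongside. Of 24 S phase genes 15 were higher and 6 lower (median 0.14), with CCNE2, a G1/S cyclin, at 1.09 (SE 0.11) and SLBP, the histone mRNA binding protein, at -0.84 (SE 0.05). Of 20 mitosis genes 2 were higher and 14 lower (median -0.45), with PLK1, a mitotic kinase, at -1.23 (SE 0.06). Beside both lists, 25.4% of all genes tested were higher and 25.0% lower. The part of cell cycle position in the values of the 10 genes was not tested.

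**Figure D4:**
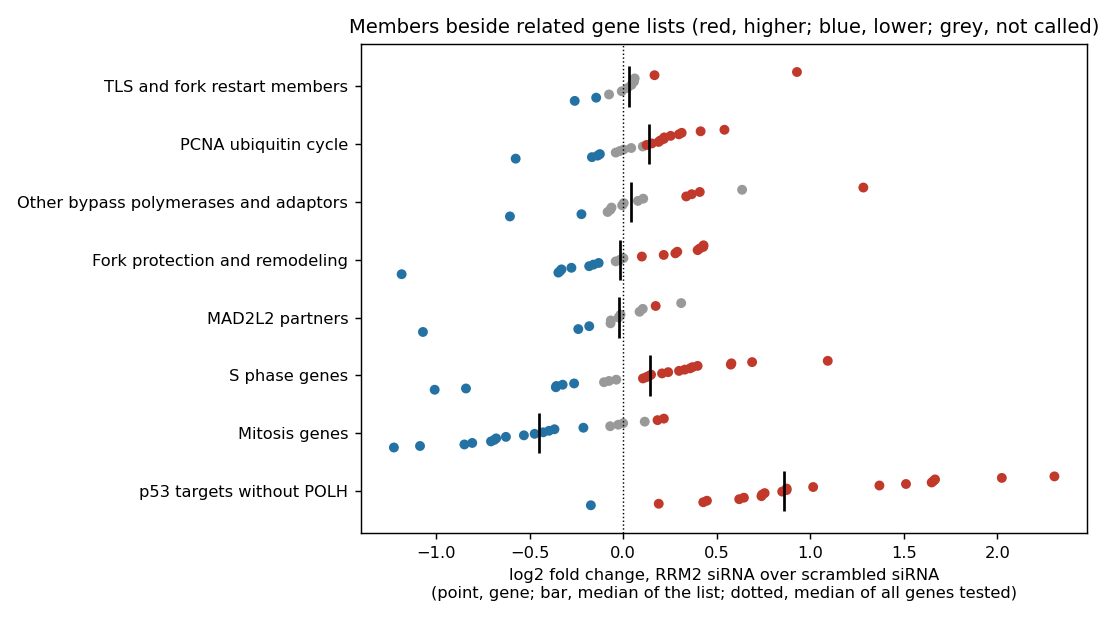
Log2 fold change of each gene (point; red, higher; blue, lower; grey, not called) in the 10-gene set and in 7 related lists, RRM2 siRNA over scrambled siRNA, with each list's median as a bar and the median of all genes tested as a dotted line. The 10 genes centre on 0.03 with POLH apart at 0.93, and the p53 targets have a median of 0.86 and run from -0.17 to 2.31, a range that holds all of the 10 genes but SHPRH.

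The plot of the alternatives shows how each value held. POLH stayed between 0.91 and 0.94 over 12 alternatives and HLTF between -0.16 and -0.13, and both passed in all 12. POLK and SHPRH kept their direction in 12 and passed in 9. POLI, REV1, REV3L, MAD2L2, RAD18 and PRIMPOL passed in 0 of 12, DESeq2 and limma voom among them, and the lowest unadjusted p among these 6 in the edgeR fit across all genes was that of MAD2L2, at 0.243.

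**Figure D5:**
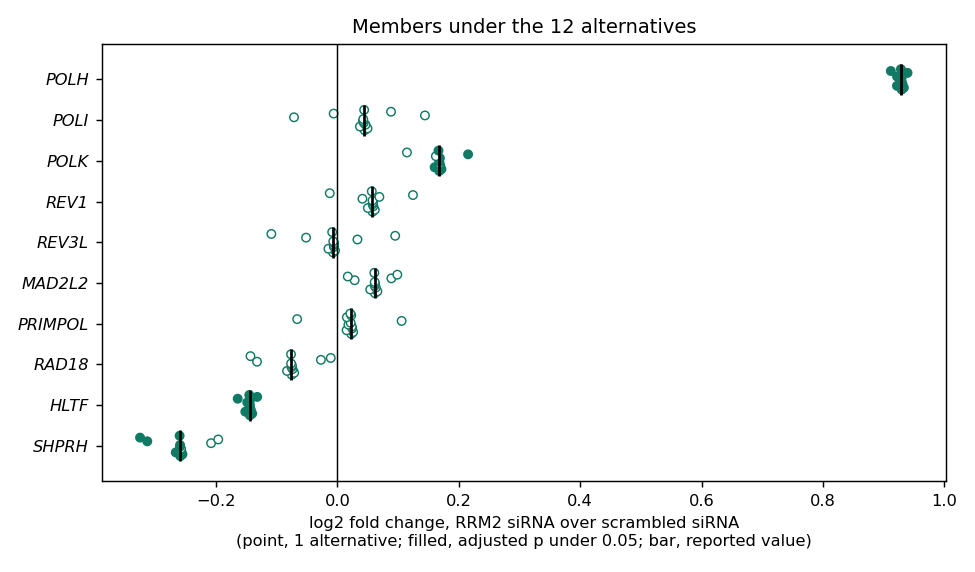
Log2 fold change of each gene under each of 12 alternatives (point; filled, adjusted p under 0.05; open, not), with the reported value as a bar. POLH and HLTF are filled throughout, POLK and SHPRH have 3 open points each, and POLI, REV1, REV3L and PRIMPOL have points on both sides of 0.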

How the data were processed

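RNA of C4-2 cells, paired reads of 50 bases by the study's methods, was measured in 4 libraries. The authors deposited estimated counts per gene, not normalized, made in Partek Flow (version, aligner, annotation, build and use of strand not given in the sources used here). Counts were rounded. In 27 rows the symbol reads as a date, and these rows (0.161% to 0.172% of counts) were kept under placeholder names. Of 24730 symbols matched to RefSeq GRCh38.p14, 99.9% overlap their position there. The test was edgeR 4.0.16's quasi-likelihood F test in R 4.3.3, with TMM scaling, no covariates and filterByExpr as the low-count filter. P-values were adjusted by Benjamini-Hochberg over 15840 genes, at a threshold of 0.05. The common dispersion was 0.00150. Fits were also run on simulated counts in which all genes shared the common dispersion and few were changed. That setting differs from these data, so the run does not measure the error of the calls here. The 12 alternatives for the fold changes changed the scaling (size factors of DESeq2, or library totals), the filter (none, or a minimum of 10 counts per library), the tool (DESeq2 1.42.0, limma voom 3.58.1), the model (with a replicate block) or the input (each of the 4 libraries dropped, or structural RNA genes dropped). Levels were also computed with the median transcript length. Counting error covers sampling of reads only. Transcripts came from GENCODE (Python 3.11.15). The members and lists were chosen with earlier results of these data known. Named genes are the 10 members, RRM2 and, per list, up to 4 called genes with the largest change and a mean of at least 100 normalized counts. A gene that this rule would name is not reported here. Genes named outside this rule are overlapping neighbours, cell type markers given to check the cell line (KLK3 among them), or genes said in the text to have been named after their values were seen.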

Additional observations from a re-analysis of the deposited data

How the results depend on the processing

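Over 12 alternatives, POLH, HLTF and RRM2 kept their direction and their call, and POLK and SHPRH kept their direction. With DESeq2, 1 member was higher and 1 was lower in place of 2 and 2. Over all 15840 genes that fit called 2751 higher and 2761 lower, in place of 4029 and 3954. Leaving out each library in turn gave 1 to 2 members higher and 1 to 2 lower, with 3309 to 3727 of all genes higher and 3287 to 3778 lower. Among the members not called, these fits spanned log2 fold changes of -0.072 to 0.14 for POLI, -0.013 to 0.12 for REV1, -0.11 to 0.10 for REV3L and -0.066 to 0.11 for PRIMPOL. Direction turned for POLI without RRM2 siRNA replicate 1 or scrambled siRNA replicate 1, for REV1 without scrambled siRNA replicate 2, for REV3L without RRM2 siRNA replicate 1 or scrambled siRNA replicate 1, and for PRIMPOL without RRM2 siRNA replicate 2. The POLH share of polymerase levels was 17.5% with the median transcript length. The cause of these shifts was not tested. Libraries with the same replicate number did not deviate together (correlation 0.0062 over genes), so the numbers were not taken to pair them. With the replicate block 4157 genes were higher and 4094 lower, and 2 members were higher and 2 lower. With 2 libraries a group, precision for PRIMPOL and SHPRH was limited by their counts.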

Other observations

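MAD2L2 works outside lesion bypass too, in shieldin and with regulators of chromosome segregation. Of 12 genes listed for these roles, 11 were tested, 1 passing as higher and 3 as lower while 7 did not pass, with a median log2 fold change of -0.02. Across all genes tested 25.4% were higher and 25.0% lower. FAM35A (SHLD2), the DNA-binding subunit of shieldin, had 923 and 899 normalized counts with RRM2 siRNA, against 1105 and 1047 with scrambled siRNA, and fell by 0.24 (SE 0.05, edgeR, adjusted p = 0.00129). CDC20, which activates the APC/C ubiquitin ligase in mitosis, fell by 1.07 (SE 0.06). FZR1, the other activator, had a log2 fold change of 0.17 (SE 0.05, edgeR, adjusted p = 0.0146), and it did not pass in DESeq2 (adjusted p = 0.106) or in the fit lacking RRM2 siRNA replicate 1 (log2 fold change 0.10, adjusted p = 0.269). The third lower gene, CDH1 at -0.18 (SE 0.04), encodes E-cadherin and was in the list only because the FZR1 product shares its name.

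Earlier results of these data had drawn attention to 2 overlapping 7-base words of the RRM2 mRNA, AAGTCCA and AGTCCAA, as possible matches to an siRNA of the pool, whose sequences were not known here. Their presence in the members is given here as a description only, since words that these data brought up cannot be tested on the same data. Coding transcripts of 5 members carry at least 1 of them (POLI, REV3L, RAD18, HLTF and SHPRH), of which 2 were lower and 0 higher with RRM2 siRNA (median log2 fold change -0.08). Of the 5 without them (POLH, POLK, REV1, MAD2L2 and PRIMPOL), 0 were lower and 2 higher (median 0.06). The longest transcripts of the carriers ran from 5317 to 11660 bases, against 1860 to 5911 in the members without the words. A longer transcript holds any 7-base word more often, and the groups also differ in length, although their ranges overlap. These lengths are over all transcripts, coding or not. Of all genes tested 25.0% were lower and 25.4% higher, and the difference between these groups of 5 was not tested, nor were the calls among all genes that carry the words counted. AAGTCCA occurs in 24.6% of 19669 genes with a coding transcript in GENCODE, and in the 3′ UTR of 10.5%. For AGTCCAA the shares are 19.3% and 8.29%. The share of genes with at least 1 of the words was not counted. The sites in RRM2 and in both members that fell are shown with the word in capitals and 10 bases on either side.
RRM2, coding part: gagtgatgtcAAGTCCAacagagaatt
HLTF, 3′ UTR: aatgagaccaAAGTCCAggttagcaca
SHPRH, coding part: ttattattatAAGTCCAggagaaatcg
RAD18 and POLI carry AAGTCCA in a 3′ UTR as well and were not called. The part of these words in the values was not tested.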
